A study of Mus musculus with 12 samples.

Results

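Thyroid hormone activation and response was followed through 5 genes of 34797 gene names on the array: Dio1, Thra, Thrb, Thrsp and Klf9. A probe was taken where the array's gene name equals 1 of these symbols, which gave 9 of 55681 probes: 3 for Dio1, 2 each for Thra and Thrb, and 1 each for Thrsp and Klf9. The genes were chosen by name with earlier results of these arrays in view, and the measured values behind that choice were the differences of Thrsp with DEN and of Dio1 with G0s2 siRNA. For DEN and for siRNA the values are therefore given as a description, without a test.

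The study profiled liver RNA of male ICR mice on 12 Agilent arrays of 1 colour, 6 treatments at day 2 and at day 7, with 1 array per treatment and day. The mice were bought at 5 weeks of age and adapted for 1 week. The vehicle group was given water, although ATRA was dissolved in ethanol and dimethyl sulfoxide. ATRA, all-trans retinoic acid, the active form of vitamin A, was drunk in water holding 30 mg/L (some 150 µg each day). DEN, diethylnitrosamine, a liver carcinogen that alkylates DNA, was likewise given at 80 mg/L (some 400 µg each day), and the ATRA+DEN group received both. In the remaining groups small interfering RNA, either a control sequence or one against G0s2, was injected into a vein with a lipid carrier, at a dose of 1.6 nmol. The injection came 1 day ahead of DEN in the protocol, while the titles of those 4 arrays name only the siRNA, so it is not stated whether the mice also drank DEN. Nor is it stated whether an array holds the RNA of 1 mouse or of several.

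For 3 arrays of day 7 the treatment characteristic disagrees with the title. The characteristic gives ATRA for the title DEN, DEN for the title ATRA+DEN and ATRA+DEN for the title ATRA. Titles were used throughout, and the main values for DEN and ATRA are also given by the characteristic. Each slide holds arrays of 1 day, so day and slide cannot be told apart. The share of probes well above background ran from 41.0% to 50.7% over the arrays. All 8 hepatocyte markers were well above background on every array, and their summed level lay between 11.88 and 12.59 (log2). Pancreas markers were high on 1 array, vehicle at day 2, with a summed level of 3.90 against -2.10 to -0.43 elsewhere, whereas muscle markers were at -2.31 there and at -4.12 to -2.28 elsewhere. Macrophage markers were highest in control siRNA at day 2, at 8.09, and in G0s2 siRNA at day 2, at 7.47, against 5.85 to 6.55 on the other arrays. The siRNA target G0s2, an inhibitor of triglyceride lipolysis, was lower with its siRNA by 1.85 and 1.19 at day 2 and day 7 (differences of -1.85 and -1.19 on the log2 scale).

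The thyroid secretes mostly thyroxine, which has little activity of its own. In liver and kidney the deiodinase encoded by Dio1 removes an iodine from the outer ring to form the active hormone triiodothyronine, and it also breaks down other iodothyronines. The active hormone binds nuclear receptors encoded by Thra and Thrb, the second being the main receptor of hepatocytes, which sit on DNA with retinoid X receptors and switch target genes on or off. Thrsp, also called Spot 14, is a classical hormone-induced gene of the liver that promotes fatty acid synthesis. Klf9 encodes a zinc finger transcription factor that responds to thyroid hormone and to glucocorticoids. Dio1 is itself induced by the hormone, and its mRNA is widely used as a readout of hormone action in liver.

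Genes with more than 1 probe give a check on each measurement, and their 60-base probes, as the array files print them, show that the readings come from separate stretches of the transcript. Coordinates are those of the array files, build mm9, with no annotation of that build at hand to place them in exons. For Dio1, on the minus strand of chromosome 4, the probes lie at chr4:106964052-106964088 (A_51_P403477, for which the file spans only 37 bases), chr4:106964935-106964994 (A_55_P2046657) and chr4:106979388-106979447 (A_55_P2039429), with 846 and 14393 bases between neighbours.
A_51_P403477: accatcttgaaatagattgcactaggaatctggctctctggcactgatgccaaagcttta
A_55_P2046657: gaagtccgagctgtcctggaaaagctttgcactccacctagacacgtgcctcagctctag
A_55_P2039429: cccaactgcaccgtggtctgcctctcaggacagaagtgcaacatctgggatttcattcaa
For Thra, on the plus strand of chromosome 11, they lie at chr11:98626356-98626415 (A_51_P475995) and chr11:98617475-98618281 (A_66_P102879), the second a span of 807 bases for a 60-base probe.
A_51_P475995: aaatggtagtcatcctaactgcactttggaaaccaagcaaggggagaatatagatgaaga
A_66_P102879: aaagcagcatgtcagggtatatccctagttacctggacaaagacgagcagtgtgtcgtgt
For Thrb, on the plus strand of chromosome 14, they lie 572 bases apart at chr14:18868800-18868859 (A_52_P532559) and chr14:18869432-18869491 (A_52_P877015).
A_52_P532559: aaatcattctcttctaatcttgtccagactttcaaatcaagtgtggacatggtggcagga
A_52_P877015: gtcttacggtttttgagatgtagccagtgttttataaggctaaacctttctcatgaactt
Thrsp and Klf9 have a single probe each, A_55_P2018666 at chr7:104561649-104561708 on the minus strand and A_65_P19780 at chr19:23240410-23240469 on the plus strand.

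Levels below are log2 intensities minus the array's 75th percentile, so that 0 is the 75th percentile of all probes on that array and a step of 1 is a doubling. A level of 1 probe is not comparable with that of another. With 1 array per group there is no spread within any group, so neighbours in an order of levels could not be tested against each other. In whole liver, fewer cells of a type and less RNA per cell cannot be told apart.

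Dio1, the activating enzyme, varied more across the arrays than any other member. On A_51_P403477 its level at day 2 was 5.05 in vehicle, 3.53 in ATRA, 4.56 in DEN, 4.66 in ATRA+DEN, 2.97 in control siRNA and 4.47 in G0s2 siRNA. At day 7 it was 5.73 in vehicle, 3.02 in ATRA, -0.63 in DEN, 2.84 in ATRA+DEN, -0.28 in control siRNA and 4.11 in G0s2 siRNA. The arrays of DEN and control siRNA at day 7 were thus the lowest, below every other array by more than 3 log2 units, and vehicle was the highest at each day. The span from the lowest to the highest array was 6.36 on the log2 scale, an 82.1-fold range. Only 0.348% of the 29302 probes tested had as wide a range, against a median range of 1.46. Dio1 was chosen with its siRNA difference on these arrays in view, so part of that range was fixed in advance. The share is a description and not a test. The probe was well above background on all 12 arrays.

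The other Dio1 probes gave the same picture at lower brightness. On A_55_P2046657 the levels at day 2 were 2.61, 0.86, 2.20, 2.10, 0.74 and 1.99 in the order of treatments just used. At day 7 they were 3.05, 0.18, -3.23, 0.02, -2.42 and 1.99. On A_55_P2039429 the levels ran from -1.30 to 0.24 at day 2, and at day 7 they were 0.77, -1.44, -4.61, -1.92, -3.09 and -0.08. On all 3 probes the highest array was vehicle at day 7, the lowest was DEN at day 7 and the next lowest was control siRNA at day 7. DEN at day 7 was the 1 array on which A_55_P2046657 and A_55_P2039429 were not well above background. Over the 12 arrays the probes correlated with each other at Pearson r of 0.97 to 0.99. With each day's mean removed r was 0.96 to 0.99. Without DEN and control siRNA at day 7, the arrays farthest from the median, this r was 0.95 to 0.98.

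**Figure D1:**
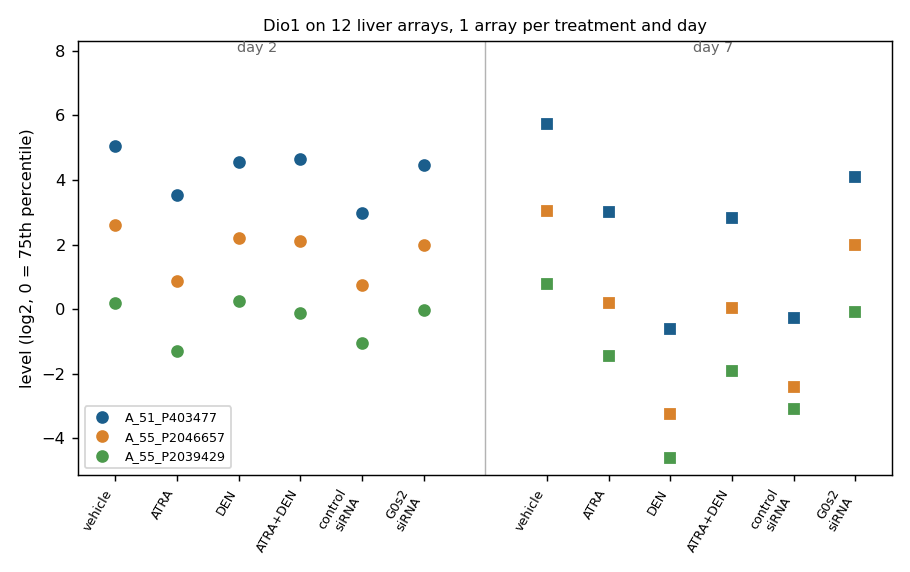
Dio1 level (log2 intensity, 0 is the array's 75th percentile) on each of 12 liver arrays, by treatment, with circles for day 2 and squares for day 7. Colours mark the 3 probes, and each point is 1 array. On every probe DEN and control siRNA at day 7 lie lowest, at -0.63 and -0.28 for A_51_P403477 against 5.73 for vehicle.

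Set against vehicle of the same day and slide, Dio1 in DEN at day 7 was lower by 82.1-fold on A_51_P403477, a difference of -6.36. On the probes that were not well above background in DEN, vehicle was higher by at least 78.1-fold (A_55_P2046657) and at least 25.1-fold (A_55_P2039429), log2 bounds of 6.29 and 4.65. Under normexp background correction the widest DEN differences on these probes were only -4.02 and -2.14, so the bounds do not hold there. Differences of 8-fold or more in either direction were seen for 0.751% of probes in this pair of arrays. The other pairs with and without DEN were much closer. On A_51_P403477 the difference was -0.49 at day 2 without ATRA, 1.13 at day 2 with ATRA and -0.19 at day 7 with ATRA, so the mean over 4 pairs, -1.48 ± 3.33 (SD), rests on 1 pair. Without that pair the mean was 0.15. By the characteristic instead of the title, the day-7 differences for DEN on this probe would be -2.89 and 3.65, and the pair that differs by -6.36 would be ATRA against vehicle.

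Hepatocyte markers summed to 12.15 in vehicle at day 7, and the sum in DEN differed by -0.16. Single markers parted: Alb and Ttr were higher in DEN and the other hepatocyte markers lower, with Cps1 at 6.5 in vehicle and 5.2 in DEN. Endothelial markers were at 6.93 and 6.15, the second being the lowest of the 12 arrays, and red cell markers were at 5.54 and 4.72, also the lowest. The endothelial markers parted too: Kdr was at 4.17 in vehicle and 4.54 in DEN, and Lyve1 was nearly level at -0.18 and -0.15. The other endothelial markers were lower in DEN, with Clec4g at 6.03 and 4.69. The red cell markers parted as well, with Hba-a1 at 4.51 and 2.71 and Alas2 at 2.89 and 3.89. Their part in the result was not tested.

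With G0s2 siRNA, Dio1 was higher than with control siRNA at both days on each probe. On A_51_P403477 it was 2.83-fold higher at day 2 and 20.9-fold higher at day 7, the second a log2 difference of 4.38. On A_55_P2046657 the log2 differences were 1.26 and 4.41, and on A_55_P2039429 they were 1.02 and 3.00. All 3 probes thus passed 2-fold at both days with the same sign, as did 1.22% of probes (0.601% in this direction). On A_55_P2039429 the day-2 difference fell short of 2-fold under normexp (0.68) and under scaling by probes above background on all arrays (0.96), and in the deposited series table (0.9999). At day 7 alone, 0.338% of probes differed by 8-fold or more in either direction. This contrast was in view when Dio1 was chosen. The lower of the arrays compared, control siRNA, stood apart from other arrays of day 7 too, though not from DEN. On A_51_P403477 control siRNA was at -0.28 and DEN, on another slide, at -0.63. At day 7 its level on A_51_P403477 was -3.30 relative to ATRA and -3.12 relative to ATRA+DEN on the same slide, whereas G0s2 siRNA was 1.08 and 1.27 above those arrays. Relative to vehicle of day 7, on another slide, control siRNA was at -6.01 and G0s2 siRNA at -1.63. Red cell markers were nearly level in this pair, 7.52 in control siRNA and 7.78 in G0s2 siRNA, and macrophage markers were at 6.55 and 5.85. Their part in the result was not tested.

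ATRA, a contrast that played no part in the choice of genes, gave no call for Dio1. Its differences on A_51_P403477 were -1.52 at day 2 and -2.71 at day 7 without DEN, and 0.10 and 3.46 with DEN. ATRA arrays were thus below vehicle at both days, and above DEN by a wide margin at day 7 only, where DEN itself was very low. Opposite signs with and without DEN, as on this probe, were seen for 8.51% of probes. They were not seen on A_55_P2039429 or A_55_P2046657, at -0.37 and -0.10 at day 2 with DEN. On the dimmer probes ATRA+DEN at day 7 exceeded DEN by at least 9.54-fold (A_55_P2046657) and at least 3.91-fold (A_55_P2039429), log2 bounds of 3.25 and 1.97. Under normexp the highest ATRA differences on these probes were only 1.44 and 0.43, so the bounds do not hold there. The mean over 4 pairs was -0.17 (SE 1.03, limma adjusted p 0.995) on A_51_P403477, and the other Dio1 probes had adjusted p of 0.971 and 0.979. By the characteristic the day-7 differences on A_51_P403477 would be -6.36 without DEN and 0.19 with DEN, and the mean -1.90 (SE 1.19, limma adjusted p 0.948). Limma called 0 of 29302 probes for ATRA at an adjusted p of 0.05 (a share of 0%), with 1696 at an unadjusted p under 0.05. The day-7 pairs for ATRA lie on different slides.

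At day 7 Dio1 was lower than at day 2 in 5 of 6 treatments. On A_51_P403477 the difference was 0.68 in vehicle, -0.50 in ATRA, -5.19 in DEN, -1.82 in ATRA+DEN, -3.25 in control siRNA and -0.37 in G0s2 siRNA. The mean was -1.74 (SE 0.74), with a limma adjusted p of 0.0912 that did not pass 0.05. The means on A_55_P2046657 and A_55_P2039429 were -1.82 and -1.38, with adjusted p of 0.0868 and 0.133. The spread over treatments, an SD of 2.17 on A_51_P403477, exceeded the mean.

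The receptor genes were far steadier than Dio1. Thra, the receptor gene that predominates in heart, bone and brain, was read by A_51_P475995 at 2.51 in vehicle, 2.47 in ATRA, 2.31 in DEN, 2.63 in ATRA+DEN, 1.92 in control siRNA and 1.96 in G0s2 siRNA at day 2. At day 7 the levels in that order were 2.68, 2.72, 2.96, 2.85, 3.16 and 2.87. Every array of day 7 was above every array of day 2, with no overlap, as for 23.5% of probes, though the days overlapped under quantile normalization and under scaling by probes above background on all arrays. The siRNA arrays were the lowest at day 2 and lay among the higher ones at day 7.

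Thra was higher at day 7 in 6 of 6 treatments, by 0.16 in vehicle and up to 1.24 in control siRNA, but in 4 of 6 under quantile normalization and 3 of 6 under scaling by probes above background on all arrays. The mean rise was 0.57 (SE 0.17), and Thra passed the test with a limma adjusted p of 0.0304. At that threshold 44.6% of probes were called for day, 23.2% higher and 21.4% lower, so a call is common here, and 3 of the 9 member probes were called. The call ended with slide as a random block (adjusted p 0.0968). It also ended when arrays were scaled by quantile normalization (0.157) or by the 75th percentile of probes above background on all arrays (0.178), where the mean was 0.35 and 0.33. Leaving out the DEN, control siRNA or G0s2 siRNA pair also ended it (0.0654, 0.0665 and 0.0792). Macrophage markers were higher in the day-2 siRNA arrays than on any other array, and their part in the result was not tested.

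The other Thra probe, A_66_P102879, was close to background. It ran from -4.30 in ATRA at day 2 to -1.98 in control siRNA at day 7 and was well above background on 5 of 12 arrays, 2 at day 2 and 3 at day 7. Its day difference was 0.46 (SE 0.45, limma adjusted p 0.433), with 4 treatments higher and 2 lower. It correlated with A_51_P475995 at r = 0.55 over the 12 arrays. In RefSeq's mouse gene table Thra overlaps Nr1d1, a clock repressor, and which probe lies in the overlap was not determined, because the builds differ.

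Thrb, the main hepatic receptor gene, was lower with DEN in every pair on both probes, except in 1 pair on A_52_P532559 under normexp background correction. On A_52_P532559 it stood at 1.31 in vehicle, 1.67 in ATRA, 1.22 in DEN, 1.18 in ATRA+DEN, 0.92 in control siRNA and 1.16 in G0s2 siRNA at day 2. At day 7 it stood at 1.75, 1.71, 1.12, 0.98, 1.04 and 0.99. Vehicle and ATRA were the highest arrays at each day, and at day 7 the other 4 arrays lay close together below them. On A_52_P877015 the day-7 levels were 0.42 and 0.34 in vehicle and ATRA, then -0.40 in DEN, -0.30 in ATRA+DEN, -0.64 in control siRNA and -0.70 in G0s2 siRNA. The probes correlated at r = 0.79 over the 12 arrays, and at 0.94 with each day's mean removed.

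The DEN differences of A_52_P532559 were -0.09 and -0.49 at day 2 without and with ATRA, and -0.64 and -0.73 at day 7. Those of A_52_P877015 were -0.18, -0.56, -0.82 and -0.63. The means over 4 pairs were -0.49 ± 0.28 and -0.55 ± 0.27 (SD), about 1.40-fold and 1.46-fold lower. One sign in all 4 pairs was seen for 21.1% of probes, and DEN results were in view when the genes were chosen. Under normexp background correction the smallest difference of A_52_P532559 became 0.01, which left 3 of 4 pairs lower. By the characteristic, the day-7 differences would be -0.78 and 0.59 on A_52_P532559 and -0.72 and 0.74 on A_52_P877015, with means of -0.19 and -0.18 over the 4 pairs. So the lower level in every pair holds for the titles and not for the characteristic.

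Thrb with G0s2 siRNA differed from control siRNA by 0.23 and -0.05 on A_52_P532559 and by 0.10 and -0.07 on A_52_P877015 at day 2 and day 7. With ATRA the mean differences were 0.03 (SE 0.13) and 0.10 (SE 0.13), with limma adjusted p of 0.988 and 0.950. For day the probes parted. A_52_P532559 differed by 0.02 (SE 0.12, limma adjusted p 0.901), with 3 treatments higher and 3 lower. A_52_P877015 fell by 0.42 on the log2 scale (SE 0.14, limma adjusted p 0.0450), lower in 5 of 6 treatments, and that call ended with slide as a random block (0.152), without the treatment block (0.131), with groups from the characteristic (0.124) and with no filter on dim probes (0.0627). It also ended without the ATRA, DEN, ATRA+DEN, control siRNA or G0s2 siRNA pair (adjusted p 0.0862 to 0.112). Under scaling by probes above background on all arrays A_52_P532559 was at -0.23.

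Thrsp, the lipogenic target, was read at 8.27 in vehicle, 7.13 in ATRA, 6.88 in DEN, 4.90 in ATRA+DEN, 8.33 in control siRNA and 8.56 in G0s2 siRNA at day 2. At day 7 it was read at 8.33, 7.62, 6.79, 7.61, 6.07 and 6.35. The lowest array was ATRA+DEN at day 2, and the siRNA arrays were the highest of day 2 and the lowest of day 7. Its range of 3.66 (12.6-fold) was matched by 4.54% of probes. Thrsp was chosen with its DEN differences in view, so that share is likewise only a description. Of 7 fat markers, Fabp4 and Cidec, which other cells of the liver can also express, were well above background on 12 of 12 arrays, Retn on 3, Cfd on 2, and Adipoq, Plin1 and Lep, which define fat cells, on 0. Their summed level ran from 1.80 to 3.17, highest in G0s2 siRNA at day 7, and their part in the values of Thrsp was not tested.

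In the 4 pairs Thrsp differed with DEN by -1.39 and -2.23 at day 2 without and with ATRA, by -1.54 at day 7 without ATRA and by -0.01 at day 7 with ATRA. The mean was -1.29 ± 0.93 (SD), and the pair of day 7 with ATRA showed next to no difference. That pair turned to 0.06 under quantile normalization and in the deposited series table, and to 0.04 under normexp. By the characteristic the day-7 differences would be -0.73 and 0.82, with a mean of -0.88 over the 4 pairs. ATRA differences were -1.14 and -0.72 without DEN, and -1.97 and 0.81 with DEN, at day 2 and day 7. Their mean of -0.75 (SE 0.46) had a limma adjusted p of 0.900, and by the characteristic it was -1.16 (limma adjusted p 0.948). At day 2 the level in ATRA+DEN was below that in either agent alone.

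The siRNA difference of Thrsp was small, 0.23 at day 2 and 0.28 at day 7, on arrays whose levels differed widely between the days. Control siRNA was 2.27 lower and G0s2 siRNA 2.21 lower at day 7 (differences of -2.27 and -2.21), whereas ATRA+DEN was 2.70 higher. Vehicle, ATRA and DEN differed by 0.06, 0.48 and -0.08. The mean of -0.22 (SE 0.63) had a limma adjusted p of 0.797, and leaving out either siRNA pair turned it to 0.19 or 0.18.

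Klf9, the zinc finger factor, was steady at day 2 except in control siRNA. Its levels there were 3.77 in vehicle, 3.98 in ATRA, 3.68 in DEN, 3.93 in ATRA+DEN, 3.28 in control siRNA and 3.90 in G0s2 siRNA. At day 7 they were 3.91, 4.08, 4.43, 4.22, 4.60 and 4.62. Vehicle was the lowest array of day 7, so the days overlapped: ATRA at day 2 lay above vehicle at day 7. Control siRNA at day 2, the lowest array for Klf9, was also that with the highest macrophage markers, 8.09, and their part in the result was not tested.

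Klf9 rose from day 2 to day 7 by a mean of 0.55 (SE 0.18, limma adjusted p 0.0414), with 6 of 6 treatments higher, from 0.10 in ATRA to 1.32 in control siRNA (3 of 6 under quantile normalization and 4 of 6 under scaling by probes above background on all arrays). The call ended with slide as a random block (0.130), with quantile normalization (0.252), with scaling by probes above background on all arrays (0.230) and with no filter on dim probes (0.0609). It also ended without the DEN, ATRA+DEN, control siRNA or G0s2 siRNA pair (0.0634 to 0.0957). Its DEN differences were -0.09 and -0.05 at day 2, and 0.52 and 0.15 at day 7, and such opposite signs at the days were seen for 12.3% of probes. For Klf9 they ended under normexp, quantile normalization and the deposited series table, each with 3 of 4 pairs higher, and by the characteristic, where the day-7 differences would be 0.32 and -0.35. The siRNA differences were 0.63 at day 2 and 0.03 at day 7. For ATRA the mean was 0.11 (SE 0.13, limma adjusted p 0.950). Over the 12 arrays Klf9 correlated with Thra (A_51_P475995) at r = 0.85, and at 0.65 with each day's mean removed. With day means removed and the day-2 siRNA arrays left out, r was 0.79. These arrays share slides and scaling, so the figures describe the arrays only.

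**Figure D2:**
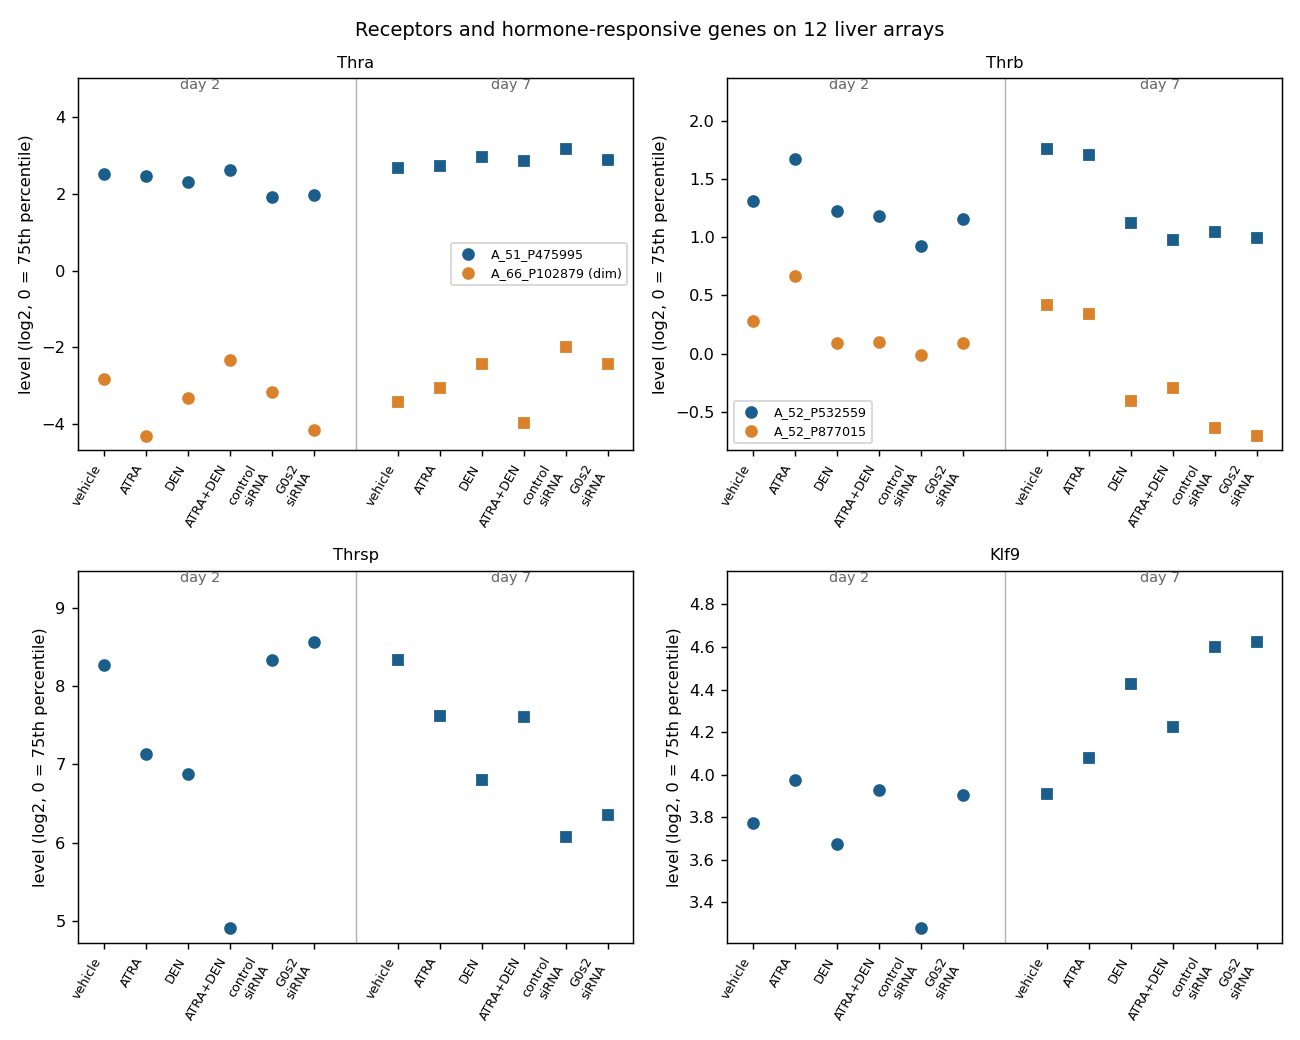
Levels of Thra, Thrb, Thrsp and Klf9 (log2 intensity, 0 is the array's 75th percentile) on each of 12 liver arrays, with circles for day 2 and squares for day 7, 1 point per array and probe. Vertical scales differ between panels. Thrb is highest in vehicle and ATRA at each day, Thrsp is lowest in ATRA+DEN at day 2 at 4.90, and Klf9 at day 7 runs from 3.91 in vehicle to 4.62 in G0s2 siRNA.

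Set side by side, the members did not move as a block. In the array titled DEN at day 7, relative to vehicle on the same slide, Dio1 was at -6.36 (A_51_P403477), Thrsp at -1.54 and Thrb at -0.64 and -0.82, while Thra was at 0.28 (A_51_P475995) and Klf9 at 0.52. Between the arrays titled ATRA+DEN and ATRA at day 7, on the same slide, Dio1 differed by -0.19 and Thrsp by -0.01, while Thrb differed by -0.73 and -0.63. In the siRNA pair of day 7 Dio1 differed by 4.38, and the other genes with probes above background on all arrays differed by -0.29 to 0.28. Dio1 and Thrsp, both induced by the hormone in the textbook account, correlated at r = 0.29 over the 12 arrays, and at 0.27 with each day's mean removed. With day means removed and DEN and control siRNA at day 7 left out, r was -0.02.

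**Figure D3:**
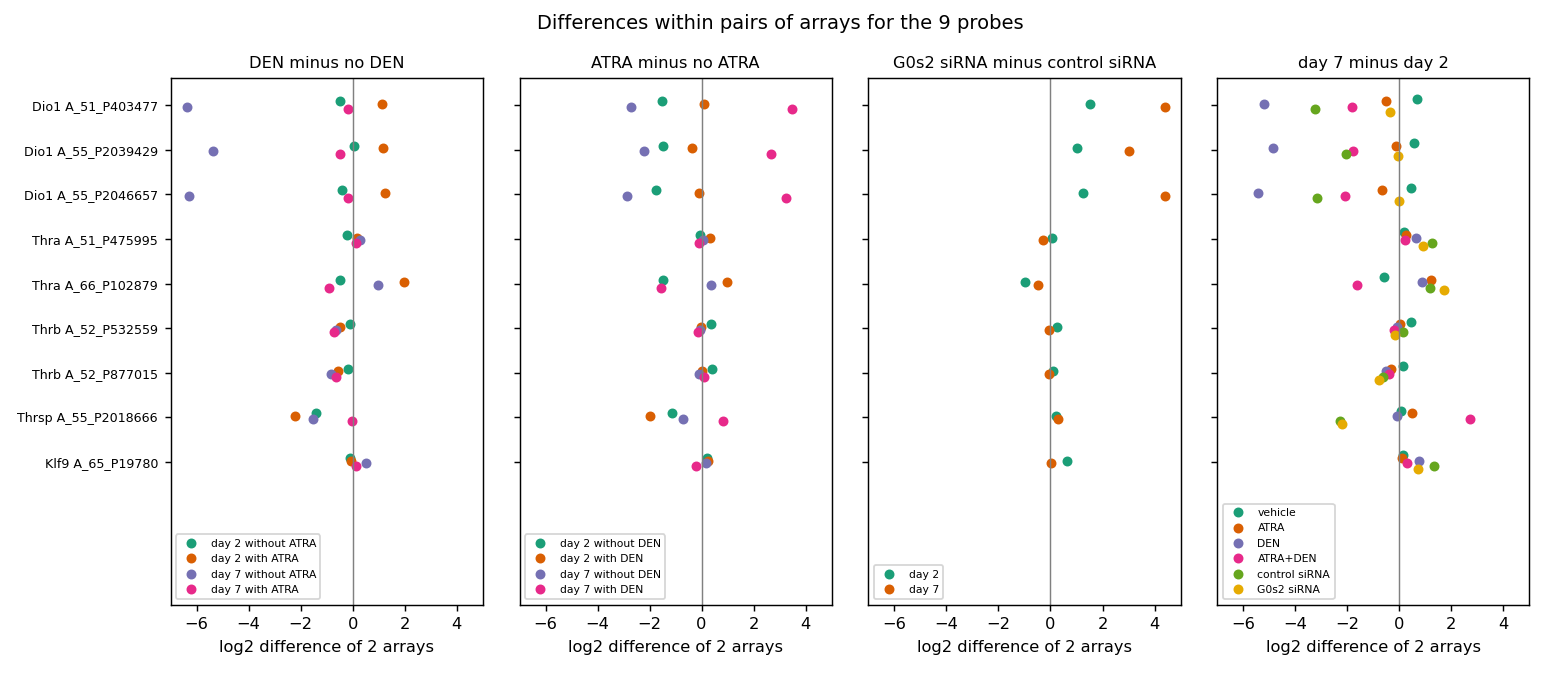
Log2 difference between the arrays of each pair for the 9 probes, in 4 panels: DEN, ATRA, G0s2 siRNA and day. Each point is 1 pair of arrays, and its colour names the pair. The Dio1 probes spread widest, from -6.36 to 4.41, while Thrb lies below 0 in all 4 DEN pairs by the titles, except on A_52_P532559 in 1 pair under normexp.

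Other genes of the pathway were taken from lists and read on the brightest probe of each gene. Of 20 genes for deiodination, transport and binding, 17 were measurable, meaning well above background on at least 2 arrays. The other deiodinases, Dio2 and Dio3, were not among them. For day 4 of the 17 were called, all lower, close to the share of all probes called lower (21.4%), against 3 lower under quantile normalization and 6 lower under scaling by probes above background on all arrays. Ugt1a6a, which conjugates the hormone for excretion, fell by 1.04 on the log2 scale (SE 0.16, limma adjusted p 0.0029), with a difference of -0.53 under normexp. The amino acid transporter Slc7a8 fell by 1.14 (SE 0.34, limma adjusted p 0.0294), a call that ended under quantile normalization (0.0731). The Slc7a8 probe was well above background on 9 of 12 arrays, the 3 others being of day 7, and under normexp the fall was 0.36. The median over the list was -0.01 against 0.11 for 21186 genes, and it was -0.25 under scaling by probes above background on all arrays.

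With DEN, Serpina7, the thyroxine-binding globulin of plasma, was well above background on the 4 arrays titled DEN or ATRA+DEN and the 4 siRNA arrays, and not on those of vehicle or ATRA. By the titles it was higher with DEN by at least 4.31-fold and 1.60-fold at day 2, without and with ATRA. At day 7 it was higher by at least 5.92-fold and 3.43-fold, in the same order. The bounds for Serpina7 were not computed under normexp. As measured, the log2 differences of 2.11, 1.17, 3.27 and 2.96 made it the only one of the 17 past 2-fold in all 4 pairs, as were 0.235% of probes (0.174% higher), and the probe was tested only because the DEN and siRNA arrays carried it past the filter. By the characteristic the day-7 differences would be 2.44 and -3.79, which ends both the 2-fold count and the single sign. Crym, a cytosolic protein that binds triiodothyronine, differed with DEN by 3.65 at day 7 without ATRA and by 0.21 to 0.27 in the other 3 pairs. Its level at day 7 was -1.03 in vehicle and -0.42 in control siRNA, against 1.44 to 2.62 on the other 4 arrays, so the array of that pair that lies apart from most of its day is vehicle. With G0s2 siRNA the organic anion carrier Slco1a4 was lower by more than 3-fold at both days, with differences of -1.68 and -1.70. Of all tested probes 0.621% were lower by 2-fold or more in both siRNA pairs. Over the 12 arrays its level ran from -0.89 in DEN at day 2 to 3.01 in control siRNA at day 7.

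Receptor partners and coregulators were all measurable, 18 of 18. For day 5 rose and 1 fell, where 23.2% of all probes were called higher and 21.4% lower, but 1 rose and 3 fell under quantile normalization, and 1 rose and 4 fell under scaling by probes above background on all arrays. The corepressor subunit Gps2 rose by 0.97 (SE 0.12, limma adjusted p 0.0014), while the acetyltransferase Ep300 fell by 0.52 on the log2 scale (SE 0.10, limma adjusted p 0.0059). Gps2 and Ep300 stayed called with the same sign under both of those scalings, but were not checked with slide as a random block or with a pair left out. With DEN 12 of the 18 were lower on average (10 or 11 under the other scalings and 10 by the characteristic), and 0 passed 2-fold in all pairs. Of all genes 45.8% were higher with DEN, so lower was the commoner direction over the array too. The mediator subunit Med1 was at -0.56 ± 0.28 and the corepressor exchange factor Tbl1xr1 at -0.48 ± 0.24 (SD over 4 pairs), each lower in 4 of 4 by the titles. By the characteristic the day-7 pair with ATRA would be at 0.74 for Med1 and 1.02 for Tbl1xr1, which leaves 3 of 4 lower. Rxra, the retinoid receptor that pairs with the thyroid receptors, differed with ATRA by -0.05 (SE 0.10, limma adjusted p 0.960).

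Of 22 other liver genes known to respond to the hormone, all were measurable. With DEN 17 were lower and 5 higher on average (16 lower under normexp, quantile normalization and the deposited series table, and 14 by the characteristic), and the median of -0.22 compares with -0.02 for all genes, of which 45.8% were higher. None of the 22 passed 2-fold in all 4 pairs. Upp2, a uridine phosphorylase, was at -0.90 ± 0.55, whereas Igfbp1, a binding protein of insulin-like growth factors, was at 1.26 ± 0.78 (SD over 4 pairs). By the characteristic these means would be -0.51 and 0.65, each with 1 pair of the opposite sign. For day 6 rose and 0 fell by limma, near the 23.2% of all probes called higher, and 5 rose and 1 fell under either quantile normalization or scaling by probes above background on all arrays. Those that rose included Angptl4, a lipoprotein lipase inhibitor, by 1.25 (SE 0.11, limma adjusted p 0.0006), and Cpt1a, the gatekeeper of mitochondrial fatty acid oxidation, by 1.05 (SE 0.13, limma adjusted p 0.0016). Cyp7a1, the rate-limiting enzyme of bile acid synthesis, rose by 1.00 (SE 0.21, limma adjusted p 0.008). These 3 genes were called higher under every scaling run for day. Their calls were not checked with slide as a random block, without the treatment block or with a pair left out.

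Glucocorticoid and clock genes, which share control of Klf9, were measurable for 9 of 10. All 9 were higher at day 7 on average, 3 of them called (23.2% of all probes were called higher), but 8 were higher and 1 called under quantile normalization and likewise under scaling by probes above background on all arrays. The median of 0.44 compares with 0.11 for all genes, of which 56.8% were higher. The clock gene Per1 rose by 1.13 (SE 0.33, limma adjusted p 0.028) and the clock output factor Tef by 0.63 (SE 0.15, limma adjusted p 0.0126), and both calls ended under those scalings (adjusted p 0.0635 and 0.0735 for Per1, 0.1231 and 0.0922 for Tef). With DEN 8 of 9 were lower on average (6 of 9 by the characteristic), with a median of -0.37 against -0.02 for all genes, of which 45.8% were higher. Tsc22d3, a glucocorticoid-induced leucine zipper gene, was the only one of them with 1 sign in all 4 pairs, at -0.40 ± 0.40 (SD), and by the characteristic its day-7 differences would be 0.27 and 0.48.

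**Figure D4:**
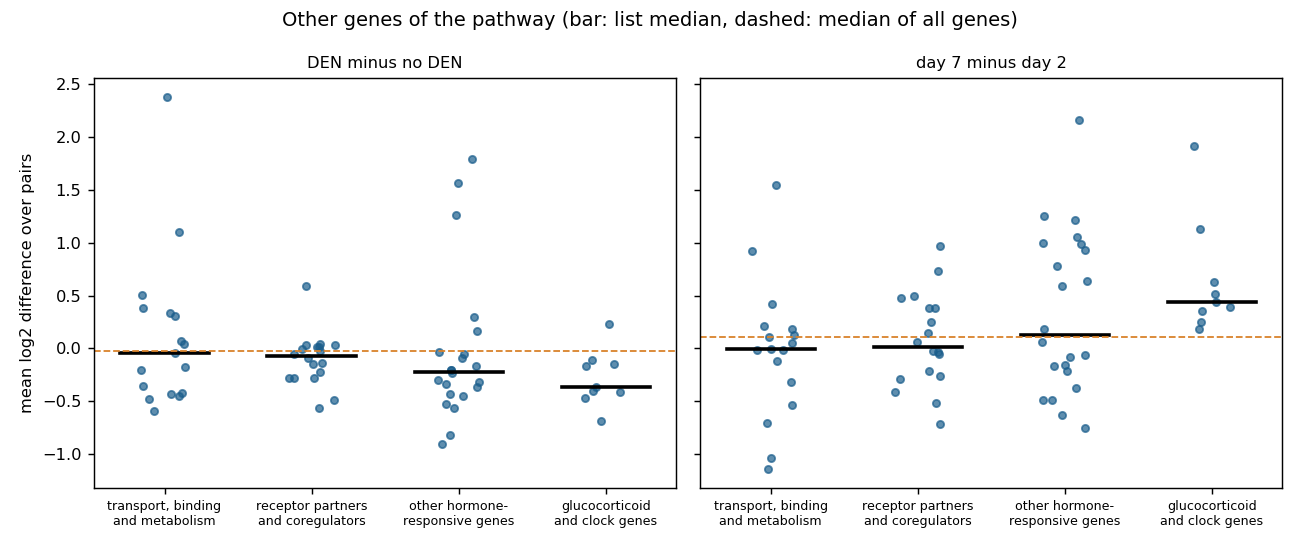
Mean log2 difference over pairs for the measurable genes of 4 pathway lists, with DEN on the left and day 7 minus day 2 on the right. Each point is 1 gene, the bar is the list's median and the dashed line is the median of all genes. With DEN 17 of 22 other hormone-responsive genes lie below 0 (16 under normexp, quantile normalization and the deposited series table, 14 by the characteristic), and all 9 glucocorticoid and clock genes lie above 0 for day (8 under quantile normalization or scaling by probes above background on all arrays).

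Likeness of pattern was measured by Pearson r over the 12 arrays after each day's mean was removed, among 4003 genes that were above background on every array and varied by an SD of at least 0.3. The highest values out of so many genes are high by selection and describe these arrays only. For Dio1 (A_51_P403477) they were Eif2ak3, a kinase of the unfolded protein response (0.86, and 0.69 without DEN and control siRNA at day 7), Zfp367, a zinc finger gene (0.85, then 0.67), and Cflar, an inhibitor of death receptor signalling (0.82, then 0.85). For Thra they were Asap2, Rnf125 and Mcc (0.91, 0.90 and 0.88), and for Thrb Dock4, Lpp and Exoc6b (0.94, 0.93 and 0.91).

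For Thrsp the nearest genes were Per2, a core clock gene (0.95, and 0.92 without ATRA+DEN of day 2 and control siRNA of day 7), Bag3, a partner of heat shock chaperones (0.93, then 0.86), and Ppp1r15b, a phosphatase subunit that restores translation after stress (0.92, then 0.94). Per2 stood at 0.54, 0.07, -0.53, -1.24, 0.85 and 0.65 at day 2 in the order used above, and at 1.07, 0.77, 0.46, 1.00, -0.19 and -0.42 at day 7. As with Thrsp, ATRA+DEN was the lowest array of day 2, and the siRNA arrays were the highest of day 2 and the lowest of day 7. For Klf9 the nearest were Btg1, an antiproliferative gene (0.94, and 0.96 without control siRNA of day 2 and G0s2 siRNA of day 7), Blm, a DNA helicase (0.91, then 0.83), and Syt1, a calcium sensor of vesicle fusion (0.91, then 0.82).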

How the data were processed

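Labelled liver RNA was hybridised to 12 arrays, and the deposited files hold 1-colour spot intensities from Agilent Feature Extraction, per the file headers, after background subtraction, with dim spots set to surrogates. The headers name version 10.7.1.1 and the submitters' processing notes 9.5.1.1. The authors' deposited series table holds normalized linear intensities, quantile-normalized separately for each day as its values show, and served only within a day as an alternative. Spots of a probe were averaged, log2 was taken and each array's 75th percentile subtracted. A probe was tested if well above background on at least 2 of 12 arrays (29302 of 55681, all 9 member probes among them, 6 of which were above background on all 12).

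Day was tested over 6 pairs with treatment as a block, and ATRA over 4 pairs of the 8 arrays without siRNA, with limma 3.58.1 (R 4.3.3) and Benjamini-Hochberg adjustment over all tested probes. P-values measure the spread between single arrays. DEN counts required 2-fold with 1 sign in all 4 pairs, and siRNA counts the same in both pairs. "At least" folds set a probe not well above background at the higher of its own level and the lowest level well above background on that array. They rest on the levels without normexp, under which the folds of Dio1 were smaller.

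All probes of the 5 genes are reported. For each pathway list and contrast, up to 3 genes with the largest mean difference and 1 sign in every pair could be named, and for likeness the 3 highest genes of each member; some genes these rules allow are not reported here. Members, lists and rules were chosen with earlier results of these data known. Symbols of other probes came from RefSeq's gene table, by accession for 27235 probes, by symbol for 3581 and by synonym for 565, and 24300 kept the file's name. Alternatives were normexp background correction (offset 50), quantile normalization, other percentiles and filters, slide as a block, groups from the characteristic and each pair left out. The fits were tested on simulated data.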

Additional observations from a re-analysis of the deposited data

Results flagged for a closer look

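The DEN difference of Dio1 on A_55_P2039429 had opposite signs at the 2 times: -5.37 and -0.48 at day 7, and 0.05 and 1.17 at day 2, so that the mean at day 7 lay 3.54 lower (a difference of -3.54). The other Dio1 probes were at -0.49 and -0.41 at day 2 without ATRA and so did not share the pattern, and by the characteristic the day-7 differences on A_55_P2039429 would be -2.69 and 3.17, which ends it. Klf9 also had opposite signs with DEN, 0.52 and 0.15 at day 7 against -0.09 and -0.05 at day 2, a difference between the means of 0.40. That pattern ended under normexp, quantile normalization and the deposited series table (3 of 4 pairs higher) and by the characteristic (0.32 and -0.35 at day 7). Opposite signs of this kind occurred for 12.3% of tested probes. For ATRA, Dio1 on A_51_P403477 was lower without DEN (-1.52 and -2.71) and higher with DEN (0.10 and 3.46), a difference between the means of 3.90 (by the characteristic -1.52 and -6.36 against 0.10 and 0.19), and 8.51% of probes had opposite signs in that way. The other Dio1 probes did not share this pattern, at -0.37 (A_55_P2039429) and -0.10 (A_55_P2046657) at day 2 with DEN. None of these differences was tested, and no groups were large enough for a search for single arrays that stand apart.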

How the results depend on the processing

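With 1 array per group, no error within a group exists, depth is limited by the number of arrays, and each test rests on 4 or 6 pairs. No paired analysis by replicate number was possible because no replicate numbers are given; the tests for day and ATRA instead match single arrays by treatment, or by day and DEN. The count for day was 13079 probes and ranged from 10299 to 12153 when a pair was left out. It was 5878 with slide as a random block (correlation within slides 0.32). The split for day was 6807 higher and 6272 lower, but 2905 higher and 8783 lower with scaling by the 75th percentile of probes above background on all arrays, which moved the median of all tested probes from 0.07 to -0.17, and 6879 and 3482 among probes above background on all 12 arrays. For DEN 0.235% of tested probes (69) passed 2-fold in all pairs, 0.0614% with normexp (18), 0.135% without the filter (75), 0.108% among probes above background on all arrays (22), 0.0444% by the characteristic (13), and 0.365% to 0.563% with a pair left out. For siRNA it was 358, 59 with normexp, 881 without the filter, 78 among probes above background on all arrays, and 1789 to 2777 with a pair left out. ATRA called 0 probes in each alternative run. Day means turned sign for Thrb A_52_P532559 (0.02), to -0.10 with quantile normalization and -0.23 with the other percentile, and ran from -0.064 (without vehicle) to 0.066 with a pair left out. That of Thrsp (-0.22) ran from -0.80 to 0.19, positive without either siRNA pair (0.19 and 0.18). With a pair left out, ATRA means of Dio1 ran from -1.38 to 0.68 (A_51_P403477), -1.36 to 0.27 (A_55_P2039429) and -1.57 to 0.47 (A_55_P2046657), positive without either pair lacking DEN. Those of Thrb A_52_P532559 ran from -0.077 to 0.092 and of Thra A_51_P475995 from -0.037 to 0.11, and Thra A_66_P102879 turned to 0.35 by the characteristic. Dio1 A_55_P2046657 passed for day only by the characteristic (adjusted p 0.0442). Of 96 alternative values for DEN and 69 for siRNA in the members, 94 and 64 moved by less than the SD over pairs, and 0 turned sign beyond it. Leaving out a pair cannot move the mean of 4 or of 2 pairs by a full SD, and the filters leave these values unchanged. Much of those counts was thus fixed in advance and does not measure robustness. Among 123 alternative values for day, 23 ended a call. Only those of the called probes, Thra A_51_P475995, Thrb A_52_P877015 and Klf9, could do so. The 23 are thus a much larger share of the values that could end a call than of the 123. The cause of these shifts was not tested.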
